A study of Homo sapiens with 6 samples.

Results

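Described here are 40 listed protein-coding genes of chromosome 1q21 to 1q22, the stretch of the long arm of chromosome 1 that surrounds CKS1B. They were listed for their place near CKS1B and matched to the array by Entrez identifier through probe sets annotated to exactly 1 gene. Where a gene had several such probe sets, the brightest by mean log2(value + 16) over all 6 arrays was used. Of the 40 genes, 37 had such a probe set and 35 passed the filter on dim signal, out of 12663 genes that passed among 19775 genes named on the array. ASH1L, TPM3 and TARS2 had no usable probe set and were not analysed here. EFNA1 and RAB13 were measured but lay below the filter.

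The cells were JJN3, an established human myeloma cell line, and total RNA was measured on 6 Affymetrix U133 Plus 2.0 arrays. JJN3 with an shRNA against CKS1B made up 3 arrays, lettered A, B and C in their titles, and JJN3 with a non-specific scrambled shRNA the other 3, also A, B and C. Both groups therefore carried an shRNA and came from the same single line. The title of scrambled array B also holds the word "poly", which no label explains. Whether it names a treatment of that array is not in the labels. Values are linear MAS5 intensities, and where 3 values of a group follow each other they are those of arrays A, B and C, in that order. Differences are given as CKS1B shRNA minus scrambled on the log2(value + 16) scale, on which changes of dim genes come out too small. Whether the 3 arrays of a group stand for separate cultures is not in the labels. The p-values therefore measure the spread between arrays, which may be technical only, and the number of arrays limits the precision.

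Extra copies of 1q21 are among the frequent secondary changes of myeloma and are linked to a poorer course of the disease. A gained segment carries many genes, so transcripts of neighbours tend to be raised together and the gene that matters is hard to single out from expression in patients. CKS1B, a small protein that binds cyclin-dependent kinases and helps the ubiquitin ligase SCF-SKP2 to mark its substrates, is 1 of the candidates in that segment. An shRNA acts on a transcript and leaves the DNA in place. The comparison of the hairpins therefore shows the neighbours' transcripts under a hairpin aimed at that of CKS1B. Whether this hairpin also acts on other transcripts was not tested. DNA copy number was not measured here. In a bulk RNA sample, fewer cells and less RNA per cell cannot be told apart.

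CKS1B lies head to head with SHC1, the gene next to it. SHC1 has 2 annotated promoter windows, and the one whose start faces CKS1B is used here. That start and the start of CKS1B are 304 bases apart on opposite strands. The 250 bases before each start therefore overlap by 196 bases, read in opposite directions. Which SHC1 start gives the transcripts that its probe sets measure was not tested. Both windows are shown because this SHC1 start shares upstream DNA with CKS1B. Sequences are from RefSeq on GRCh38.p14, 5′ to 3′ on the strand of the gene, at chr1:154974431-154974680 on the plus strand for CKS1B and chr1:154974377-154974626 on the minus strand for SHC1. Capitals mark CCAAT, on either strand (ATTGG where it is read on the other), and TTTGAA.
CKS1B: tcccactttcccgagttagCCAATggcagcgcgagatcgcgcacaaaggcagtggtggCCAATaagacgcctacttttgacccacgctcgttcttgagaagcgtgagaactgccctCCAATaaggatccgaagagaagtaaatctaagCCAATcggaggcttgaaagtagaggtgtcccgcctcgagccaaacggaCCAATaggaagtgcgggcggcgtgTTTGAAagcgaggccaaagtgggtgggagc
SHC1: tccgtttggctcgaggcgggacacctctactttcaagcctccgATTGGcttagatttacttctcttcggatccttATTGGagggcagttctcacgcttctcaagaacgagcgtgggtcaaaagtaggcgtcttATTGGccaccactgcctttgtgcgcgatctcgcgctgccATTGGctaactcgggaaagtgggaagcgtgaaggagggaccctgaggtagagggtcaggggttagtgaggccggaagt
The CKS1B window held CCAAT at 5 positions, none overlapping another, and TTTGAA at 1, which falls in the bases that the windows do not share. The SHC1 window held 4 of those 5 CCAAT matches, as ATTGG, and no TTTGAA on either strand. Searched on both strands, 32.0% of 35116 annotated promoter windows of this length held CCAAT at least once, 0.319% held it at least 5 times, and 13.3% held TTTGAA. These are matches of letters in a window and say nothing of which factor is bound.

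One array stood far apart from the rest, and scrambled array C stood apart to a lesser degree. The intensities of CKS1B shRNA array B correlated with those of the other 5 arrays at 0.577 to 0.610 (Pearson, on the log2 scale across probe sets), against 0.879 to 0.958 among those 5. Scrambled array C made the lower end of that span, at 0.879 to 0.891. Both arrays had a compressed distribution: the SD of log2 values was 1.61 for CKS1B shRNA array B and 1.83 for scrambled array C, where the remaining 4 arrays had 2.20 to 2.24. Their median intensities were 334 and 201.6, where the remaining 4 had 117.5 to 136.3. Scrambled array C thus differed in the same direction, and its weight is named for some of the single genes below, not for all. The actin 3'/5' control ratio is a measure of RNA quality and labelling. On CKS1B shRNA array B it was 12.4, against 1.11 (A) and 2.93 (C) on the other CKS1B shRNA arrays. With the scrambled shRNA it was 1.05 to 1.66. Log2 differences are therefore given with all 6 arrays and without CKS1B shRNA array B, and the 2 arrays then left are taken to vary like the scrambled ones. All 7 plasma cell markers were above the filter, and their summed intensities spanned 15261 to 31374 with the CKS1B shRNA and 23897 to 31583 with the scrambled shRNA. MS4A1 (CD20), a B cell marker, also read 4578 to 7718 with the CKS1B shRNA and 5426 to 7996 with the scrambled shRNA. The other measured B cell markers were dimmer. CD22 read 261 to 440 with the CKS1B shRNA and 94.0 to 394 with the scrambled shRNA. PAX5, below the filter, read 90.5 to 287 with the CKS1B shRNA and 42.9 to 183.5 with the scrambled shRNA. The summed intensities of the T cell markers spanned 405 to 3324 with the CKS1B shRNA, highest on array B, and 300.1 to 1003 with the scrambled shRNA. Those of the stromal markers spanned 582 to 1722 with the CKS1B shRNA and 916 to 1392 with the scrambled shRNA, and those of the myeloid markers 326 to 788 with the CKS1B shRNA and 346 to 446 with the scrambled shRNA. Above the filter were 3 of 3 measured T cell markers, 3 of 4 stromal and 1 of 4 myeloid markers, and none read 0. The part of these signals in the results below was not tested.

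CKS1B itself read 481, 269 and 828 with the CKS1B shRNA, against 8266, 8441 and 7294 with the scrambled shRNA. Every CKS1B shRNA array lay far below every scrambled array. The mean was 526 ± 282 with the CKS1B shRNA and 8000.2 ± 618 with the scrambled shRNA (SD, n = 3 each), so that 6.57% of the scrambled level was left, or 8.18% on arrays A and C alone. The log2 difference was -4.02 (SE 0.44), with limma's adjusted p at 0.246 over all genes tested. Without CKS1B shRNA array B it was -3.63 (SE 0.26, 95% interval -4.21 to -3.05) and passed, at an adjusted p of 0.00126. The exact permutation test, two-sided and with 3 arrays on either side, gave p = 0.1, the smallest that this design allows. CKS1B is represented by 1 probe set only, so no other probe set checks it.

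None of the 35 neighbours tested passed the same test. With 6 arrays 0 of 35 had an adjusted p under 0.05 in limma, where the share of all genes called was 0%, and at an unadjusted p under 0.05 there were 0 of 35, against 2.95% of all genes. Without CKS1B shRNA array B the count was again 0 of 35 adjusted, against 0.0395% of all genes (5 genes, of which CKS1B was the only one in the interval spanned by the listed genes), and 5 of 35 unadjusted, against 9.49% of all genes. In that comparison of 5 arrays, 13 neighbours were nominally lower and 22 higher with the CKS1B shRNA, the median log2 difference was 0.09 beside -0.04 over all genes tested, and the extremes were -0.56 for MUC1 and 1.18 for ZBTB7B. The estimate lay within 2-fold for 34 of 35 neighbours (97.1%, against 95.6% of all genes). For 28 of 35 the whole 95% interval did so, against 5492 of all 12663 genes. Of the 35, 24 fell in the brightest of 4 equal classes of all genes tested. The part of brightness in the count of intervals was not tested. The lowest lower limit of any neighbour was -1.39 and the highest upper limit 2.23, so the neighbours are not all bounded equally tightly.

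The drop of CKS1B relative to each neighbour was also computed directly, as log2 CKS1B minus log2 neighbour on each array. The difference between groups ran from -4.87 against POGZ to -2.44 against ILF2 with 6 arrays, and from -4.80 against ZBTB7B to -3.07 against MUC1 without CKS1B shRNA array B. Against SHC1 it was -3.34 with 6 arrays and -3.52 without that array. All of these differences share the CKS1B values, which alone separate the groups and already give the smallest exact p that the arrays allow. They are therefore given as sizes with no test and say nothing particular of the neighbours. In limma, the 95% interval of every neighbour lay wholly above the estimate for CKS1B, with 6 arrays and without array B alike. The same held for 12519 of all 12663 genes tested with 6 arrays and for 12657 without array B, so it is no mark of the neighbours.

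**Figure D1:**
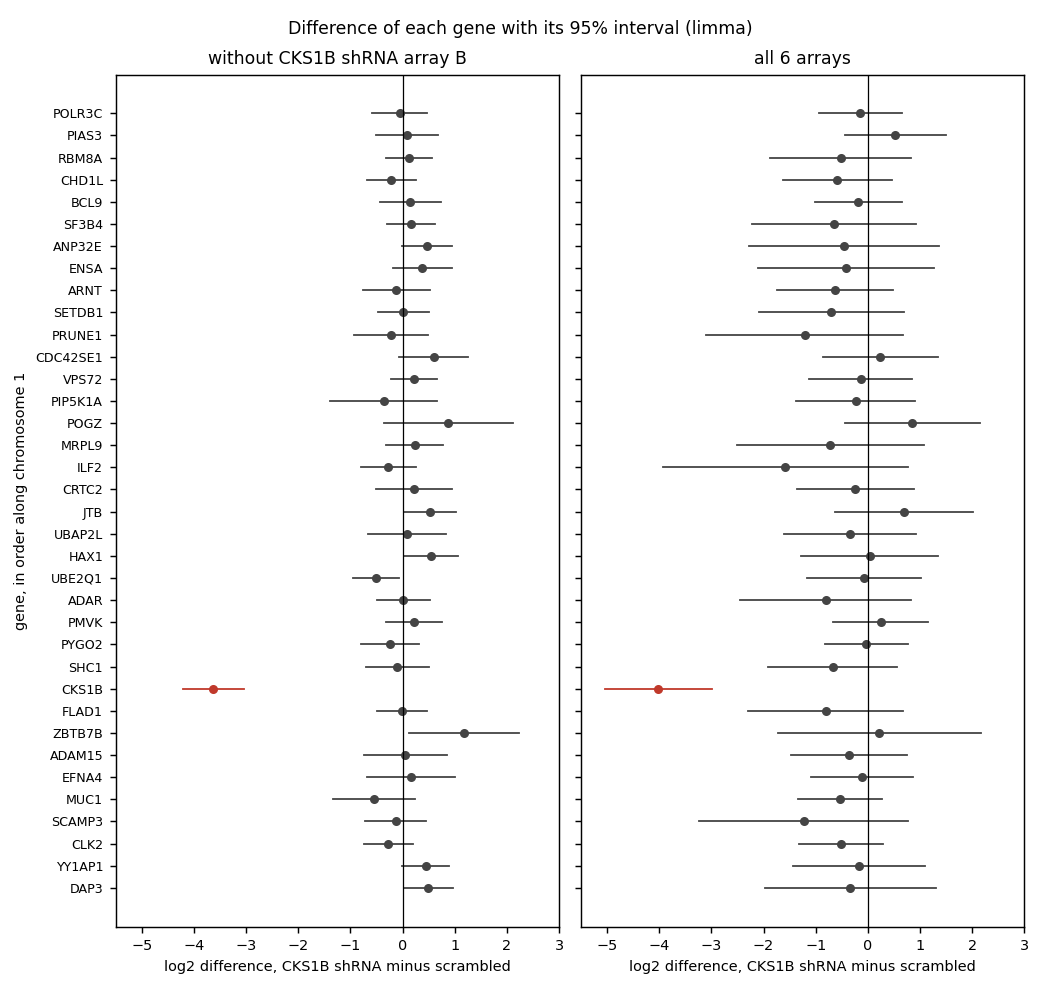
Log2 difference, CKS1B shRNA minus scrambled shRNA, of each tested gene with its 95% interval from limma, in order along chromosome 1, without CKS1B shRNA array B (left) and with all 6 arrays (right). CKS1B (red) lies at -3.63 and -4.02, and every neighbour's interval lies above its estimate in both panels, as do those of nearly all genes tested.

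The genes closest to CKS1B lay on both sides of 0. Of the 20 protein-coding genes within 10 places of CKS1B on either side, 14 were tested. Without CKS1B shRNA array B 7 of these were nominally lower and 7 higher, and their median log2 difference was 0.001, whereas with 6 arrays the median was -0.09, and 9 of them were lower. Among 58 tested genes within 40 places, listed or not, 24 were nominally lower and 34 higher, the median was 0.08 and the range -1.05 (S100A14) to 1.18 (ZBTB7B), and 0 passed adjustment. With 6 arrays 39 of the 58 were lower and 19 higher, the median was -0.17 and the range -1.58 (ILF2) to 0.76 (EFNA3). S100A14 is named as the lowest value and was chosen after its values were seen. Beside these, 91 unlisted genes tested between the first and the last listed gene had a median of 0.01 without array B and -0.03 with 6 arrays. The 641 genes tested on 1p had 0.01 and -0.09, and the 395 on 1q beyond the listed ones -0.09 and -0.12. None of these genes passed adjustment in either comparison.

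**Figure D2:**
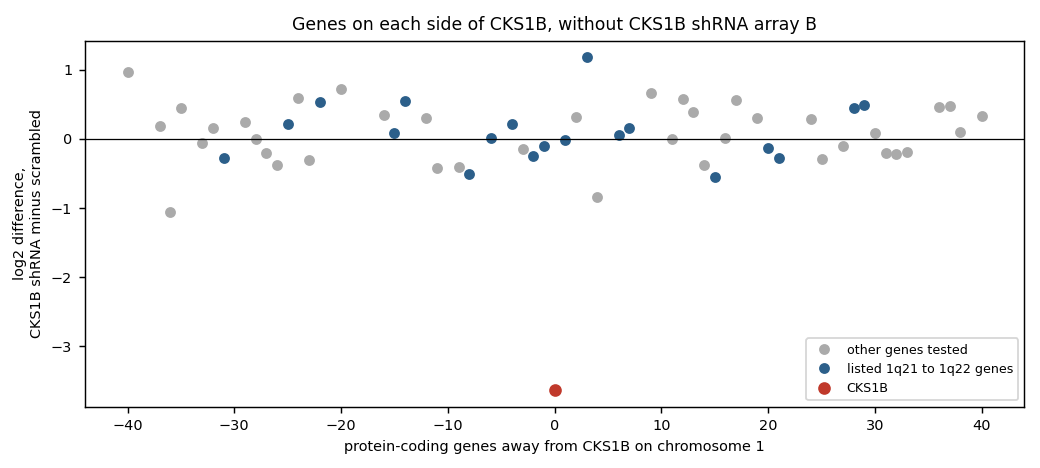
Log2 difference without CKS1B shRNA array B of each tested gene within 40 places of CKS1B, against its place in the order of protein-coding genes on chromosome 1, counted from CKS1B at 0. The listed genes (blue) and the other genes (grey) scatter on both sides of 0 between -1.05 and 1.18, and CKS1B (red) lies alone at -3.63.

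The nearest neighbours are given by their values. SHC1, an adaptor that links receptor tyrosine kinases to Ras and lies next to CKS1B on the side of the short arm, read 2775, 684 and 1869 with the CKS1B shRNA, against 2639, 2938 and 1902 with the scrambled shRNA. Arrays A and C of the CKS1B shRNA lay within or just below the scrambled range and array B far below it. The log2 difference was -0.68 with 6 arrays and -0.11 (95% interval -0.71 to 0.50) without array B. A second SHC1 probe set read 994, 1313 and 529 with the CKS1B shRNA and 1136, 850.5 and 659 with the scrambled shRNA, so there array B was the highest of all. FLAD1, which makes the cofactor FAD and is the next gene on the other side of CKS1B, read 2046, 406 and 2349.8 with the CKS1B shRNA, against 2437, 2147 and 2064 with the scrambled shRNA. Its groups overlapped on arrays A and C, and its log2 difference was -0.81 with 6 arrays and -0.01 (-0.49 to 0.47) without array B.

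Further out on the short-arm side lie PYGO2, PMVK, ADAR and UBE2Q1. PYGO2, a reader of histone methylation that serves beta-catenin in Wnt signalling, read 1447, 2002 and 1132 with the CKS1B shRNA, against 1416, 1369.6 and 1807 with the scrambled shRNA. PMVK, a kinase of the mevalonate pathway, read 6325, 5930.5 and 4872 with the CKS1B shRNA, against 5668, 5072 and 3840.0 with the scrambled shRNA. Both genes had overlapping groups, and their log2 differences were -0.03 and 0.24 with 6 arrays and -0.24 (-0.79 to 0.31) and 0.21 (-0.33 to 0.75) without array B. ADAR, which edits adenosine to inosine in double-stranded RNA, read 9032, 1363 and 6381 with the CKS1B shRNA, against 7865, 8109 and 6665 with the scrambled shRNA. Array A lay above the scrambled range, array C just below it and array B far below it, and the log2 difference was -0.81 with 6 arrays and 0.01 (-0.49 to 0.52) without array B.

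UBE2Q1, a ubiquitin-conjugating enzyme, was the only neighbour of the 35 whose 95% interval lay wholly below 0 without array B. It read 3052, 7812 and 3198 with the CKS1B shRNA, against 4576, 4535 and 4273 with the scrambled shRNA. Arrays A and C lay below all scrambled arrays and array B above them all. The log2 difference was -0.07 with 6 arrays and -0.51 (-0.95 to -0.07) without array B, where it missed the threshold over all genes (limma adjusted p = 0.504). A second probe set showed the same pattern, at 215, 489.8 and 184 with the CKS1B shRNA and 292, 289.6 and 277 with the scrambled shRNA. Another probe set, below the filter, read 146, 147 and 70.4 with the CKS1B shRNA and 152, 223 and 174 with the scrambled shRNA, with every CKS1B shRNA array below every scrambled array.

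On the far side of FLAD1 come ZBTB7B, ADAM15 and the ephrin-A genes. ZBTB7B, the transcription factor ThPOK, read 526, 72.5 and 753 with the CKS1B shRNA, against 384, 375 and 133 with the scrambled shRNA. Arrays A and C lay above all scrambled arrays, array B below them, and scrambled array C, the one with the narrower spread of values, was itself well under the other scrambled arrays. The log2 difference was 0.22 with 6 arrays and 1.18 (0.12 to 2.23, limma adjusted p = 0.504) without array B. Another ZBTB7B probe set, below the filter, read 177, 369 and 31.7 with the CKS1B shRNA and 53.5, 25.4 and 85.6 with the scrambled shRNA. In that probe set array B was the highest of all, and array C of the CKS1B shRNA lay inside the scrambled range. ADAM15, a membrane-bound metalloprotease, read 1297, 405 and 751 with the CKS1B shRNA, against 1350.1, 968 and 660.5 with the scrambled shRNA. EFNA4, a ligand of Eph receptors, read 469.7, 309.6 and 677 with the CKS1B shRNA, against 612, 318 and 648 with the scrambled shRNA. The groups of both overlapped. The log2 differences were -0.37 and -0.12 with 6 arrays and 0.05 (-0.74 to 0.84) and 0.16 (-0.67 to 0.998) without array B. A second ADAM15 probe set gave 0.315 with 6 arrays and 0.936 without array B. EFNA1, another ephrin ligand, lay below the filter at 11, 57.5 and 37.7 with the CKS1B shRNA and 16.9, 9.7 and 97.7 with the scrambled shRNA.

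**Figure D3:**
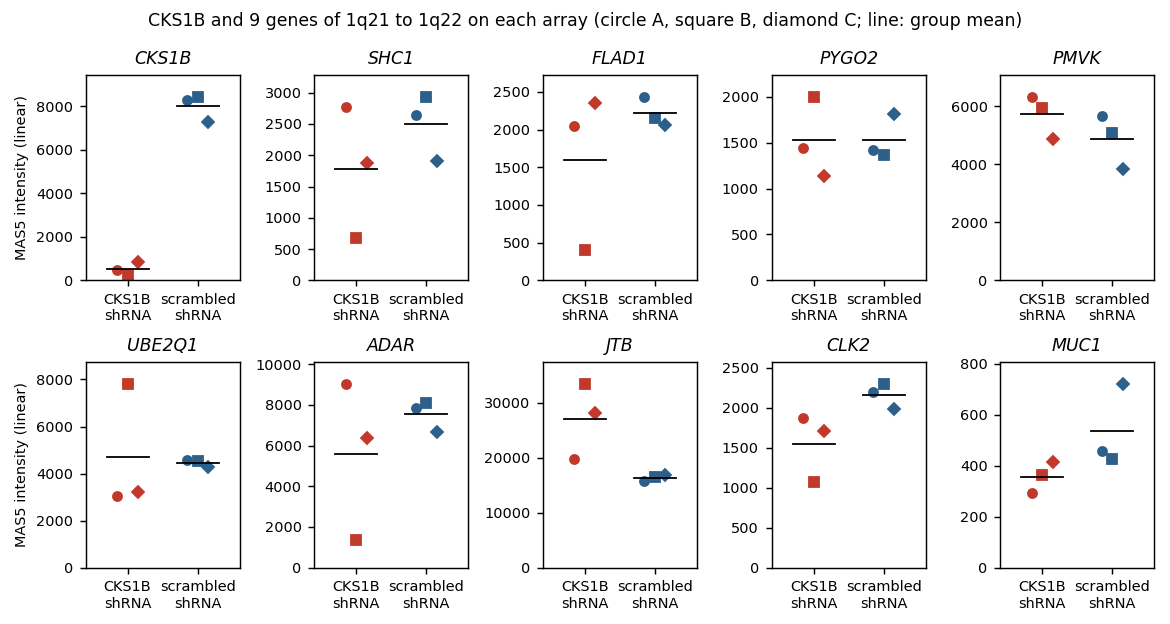
MAS5 intensity (linear axis from 0) of CKS1B and 9 listed genes on every array, CKS1B shRNA left and scrambled shRNA right, with circle, square and diamond for arrays A, B and C and a line at the group mean. CKS1B lies at 269 to 828 with its shRNA against 7294 to 8441 with the scrambled shRNA, while in SHC1, FLAD1, ADAR and UBE2Q1 the square of array B lies far from the other CKS1B shRNA points.

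With 6 arrays the neighbours leaned low as a whole, and CKS1B shRNA array B carried that lean. Of 35, 28 were nominally lower and 7 higher, where 7054 of all 12663 genes were lower. The median log2 difference was -0.34 beside -0.08 over all genes. Without array B the split was 13 lower and 22 higher, where 6770 of all 12663 genes were lower. Leaving out array B changed the sign in 15 of 35 neighbours, beside 4384 of all 12663 genes. The median of the 35 against the scrambled mean was 0.18, -1.20 and 0.09 with the CKS1B shRNA. The scrambled arrays, each set against the mean of the remaining scrambled arrays, had 0.17, 0.01 and -0.17. Over all genes tested the median against the scrambled mean was -0.04, 0.01 and -0.02 on the CKS1B shRNA arrays. Array B lay farther from the scrambled mean than both other CKS1B shRNA arrays did in 29 of the 35 genes. The same count over all genes is not given here, so it is not read as a trait of the neighbours.

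The shift on array B went with signal strength over the whole array. When all genes tested were put in 4 equal classes by brightness, the median on array B against the scrambled mean was 1.11, 0.27, -0.37 and -1.37, dimmest class to brightest. The 35 neighbours numbered 1, 5, 5 and 24 in these classes. Their medians there were -1.69, -0.50, -1.16 and -1.81, below that of all genes in each class. In the brightest class 21 of the 24 were lower, where 81.3% of all its genes were lower. Why the neighbours lay below their classes was not tested. For CKS1B the 500 genes nearest to it in scrambled mean had a median intensity of 8759, 1731 and 8760 with the CKS1B shRNA, against 7924, 7668 and 6991 with the scrambled shRNA. A low value on array B is therefore shared by most bright genes, whereas CKS1B was low on arrays A and C too. Why array B differed was not tested.

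**Figure D4:**
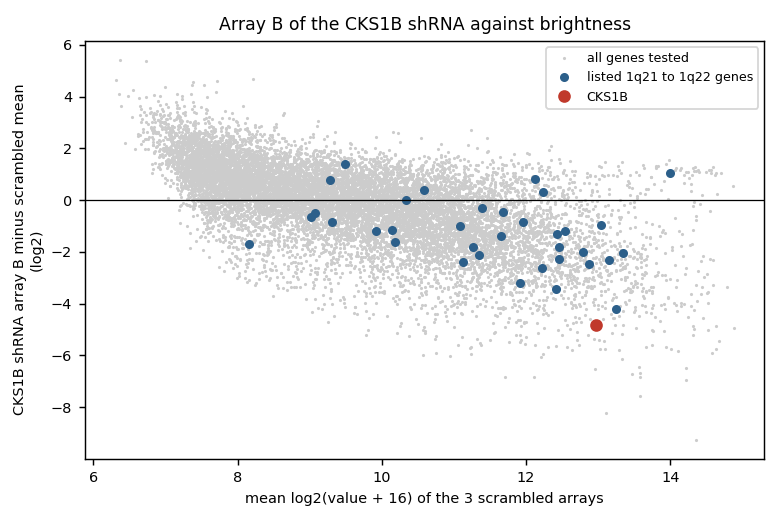
Log2 value on CKS1B shRNA array B minus the scrambled mean, against the scrambled mean log2(value + 16), for all genes tested (grey), the listed genes (blue) and CKS1B (red). The cloud slopes from above 0 at dim genes to below 0 at bright ones. The listed genes lie mostly on its bright side, with a median below that of all genes in each brightness class. CKS1B lies in the lower part of the cloud.

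The 6 genes of RNA binding and splicing were all nominally lower with 6 arrays (median -0.58), and 2 were lower and 4 higher without array B (median 0.05). None passed adjustment. ILF2, a protein of complexes that bind double-stranded RNA, read 9590.1, 511 and 6709.6 with the CKS1B shRNA, against 10855, 10118 and 8258 with the scrambled shRNA. Its log2 difference of -1.58, the lowest of the 35 with 6 arrays, was -0.27 (-0.80 to 0.26) without array B, with array A inside the scrambled range and array C below it. CLK2, a kinase of SR splicing factors, read 1865, 1067 and 1702 with the CKS1B shRNA, against 2189, 2295 and 1987 with the scrambled shRNA. Its groups did not overlap, and its log2 difference was -0.52 with 6 arrays and -0.27 (-0.75 to 0.20) without array B. SF3B4, of the U2 splicing particle, read 6558, 1161 and 5971 with the CKS1B shRNA and 6044, 5889 and 4968 with the scrambled shRNA. RBM8A, of the exon junction complex, read 6265, 1601 and 5979 with the CKS1B shRNA and 6156, 5297 and 5462 with the scrambled shRNA. UBAP2L, an RNA-binding protein of stress granules, read 9192, 2609 and 4248 with the CKS1B shRNA and 7752, 5376 and 4966 with the scrambled shRNA. In all 3 of these genes array B lay below every scrambled array, and the log2 differences were -0.65, -0.52 and -0.34 with it and 0.16, 0.12 and 0.08 without it.

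Of the 14 genes of chromatin and transcription, 13 were tested, with 10 nominally lower and 3 higher with 6 arrays (median -0.17), and 4 lower and 9 higher without array B (median 0.15). None passed adjustment. POGZ, a zinc finger protein that binds heterochromatin protein HP1, had the highest log2 difference of the 35 with 6 arrays, 0.85 (-0.45 to 2.15). It read 1126, 1066 and 1135 with the CKS1B shRNA, against 1112, 871 and 226 with the scrambled shRNA. The CKS1B shRNA arrays lay close together there, and scrambled array A lay among them. Scrambled array C, which stood somewhat apart over the whole array, made most of the difference. Without it the log2 difference was 0.17. A second POGZ probe set went the other way, at -0.16 with 6 arrays and -0.52 without array B. PIAS3, a SUMO ligase and inhibitor of STAT3, read 861, 1879 and 657 with the CKS1B shRNA, against 761, 697 and 660.1 with the scrambled shRNA. Only array B stood above the scrambled range by a wide margin, and the log2 difference of 0.53 was 0.09 (-0.50 to 0.69) without it.

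Several chromatin genes read low on array B and near or above the scrambled level on arrays A and C. ANP32E, a chaperone that removes the histone variant H2A.Z, read 11953, 1806 and 13332 with the CKS1B shRNA, against 9759, 10080.5 and 7626 with the scrambled shRNA. VPS72, a subunit of complexes that deposit that variant, read 4770.4, 2191 and 4436 with the CKS1B shRNA, against 4091, 3641 and 4129 with the scrambled shRNA. YY1AP1, a coactivator of YY1, read 4361, 1213 and 4389 with the CKS1B shRNA, against 3506, 3111 and 3055 with the scrambled shRNA. In these 3 genes arrays A and C lay above every scrambled array, and the log2 differences were -0.46, -0.14 and -0.17 with 6 arrays and 0.47, 0.22 and 0.44 without array B. The other 2 ANP32E probe sets gave 0.10 and -0.09 without array B.

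SETDB1, which methylates histone H3 at lysine 9, read 2954, 581 and 2330.2 with the CKS1B shRNA and 2828, 2665 and 2319 with the scrambled shRNA. CHD1L, a chromatin remodeller recruited by poly(ADP-ribose), read 5224, 2181 and 4258 with the CKS1B shRNA and 5521, 6039 and 4947 with the scrambled shRNA. Their log2 differences were -0.70 and -0.59 with 6 arrays and 0.01 and -0.22 without array B, and in both genes the groups overlapped. BCL9, which joins PYGO2 to beta-catenin, read 699, 340.1 and 677 with the CKS1B shRNA and 669, 582 and 612 with the scrambled shRNA. ARNT, the partner of hypoxia-inducible factors, read 839, 362 and 1325 with the CKS1B shRNA and 933, 1317 and 1237 with the scrambled shRNA. Array B was the lowest of all 6 in both, and they gave -0.18 and -0.62 with it and 0.15 and -0.12 without it. CRTC2, a coactivator of CREB, read 949, 491 and 1768 with the CKS1B shRNA and 882, 1074 and 1459 with the scrambled shRNA. POLR3C, a subunit of RNA polymerase III, read 2725, 2148 and 2410.5 with the CKS1B shRNA and 3005, 2973 and 2132 with the scrambled shRNA. Both had overlapping groups, at -0.24 and -0.14 with 6 arrays and 0.22 and -0.06 without array B.

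**Figure D5:**
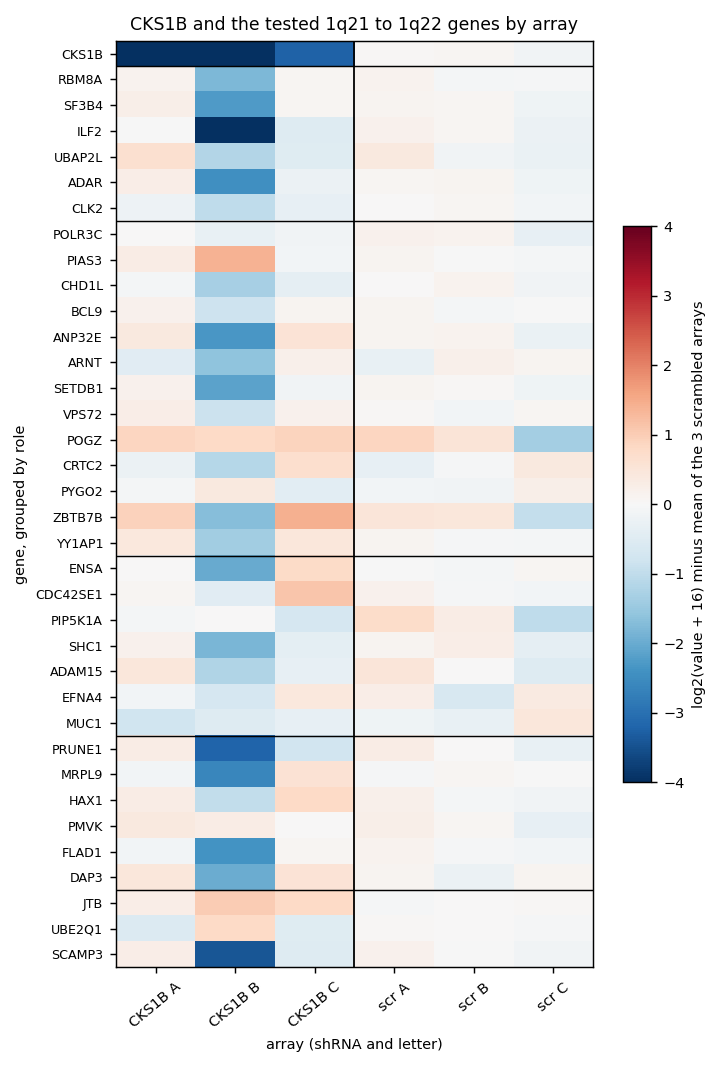
Each array's log2(value + 16) minus the mean of the 3 scrambled arrays (colour, blue lower and red higher, drawn at the end of the scale beyond 4 units either way) for CKS1B and the 35 tested genes, grouped by role, with the CKS1B shRNA arrays left and the scrambled (scr) arrays right. CKS1B is dark on all 3 of its shRNA arrays. The listed genes depart most on array B of the CKS1B shRNA, where 28 of 35 are lower and their median is -1.20.

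Of the 9 genes of the cell surface, signalling and cytoskeleton, 7 were tested, with 6 nominally lower and 1 higher with 6 arrays (median -0.37), and 3 lower and 4 higher without array B (median 0.05). None passed adjustment. MUC1, a membrane mucin, read 294, 362 and 413 with the CKS1B shRNA, against 459, 425 and 721 with the scrambled shRNA. The groups did not overlap, by a margin of 413 against 425 at their nearest. The log2 difference was -0.54 with 6 arrays and -0.56 (-1.34 to 0.23) without array B. Scrambled array C read highest, and without it the log2 difference was -0.31. The 2 other MUC1 probe sets above the filter gave -0.62 and 0.29 without array B, so they did not share a direction. CDC42SE1, a small protein that binds the GTPase CDC42, read 3453, 2368 and 7062 with the CKS1B shRNA, against 3663, 3143 and 3042 with the scrambled shRNA. Array C stood far above every other array, and the log2 difference of 0.24 was 0.59 (-0.07 to 1.25) without array B. PIP5K1A, a kinase that makes the membrane lipid PIP2, read 1220.0, 1289 and 803 with the CKS1B shRNA and 2116, 1582 and 619 with the scrambled shRNA. Only scrambled array C, the lowest of all, made the groups of PIP5K1A overlap. ENSA, an inhibitor of the phosphatase PP2A during mitosis, read 10440.2, 2538 and 17625 with the CKS1B shRNA and 10325, 9863 and 11079.9 with the scrambled shRNA. The groups overlapped in each, at -0.24 and -0.42 with 6 arrays and -0.36 and 0.38 without array B.

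Of the 7 genes of mitochondria, translation and metabolism, 6 were tested, with 4 nominally lower and 2 higher with 6 arrays (median -0.53), and 2 lower and 4 higher without array B (median 0.22). None passed adjustment. HAX1, a mitochondrial protein that protects from apoptosis, read 10322, 4285 and 14548 with the CKS1B shRNA, against 9682, 8045 and 7643 with the scrambled shRNA. DAP3, of the small subunit of the mitochondrial ribosome, read 9610.0, 1758 and 10214 with the CKS1B shRNA, against 7617, 5985 and 7621 with the scrambled shRNA. In both genes arrays A and C lay above every scrambled array and array B below them, and the log2 differences were 0.04 and -0.33 with 6 arrays and 0.54 (0.03 to 1.06) and 0.49 (0.02 to 0.96) without array B, each then with an adjusted p of 0.511. MRPL9, of the large subunit, read 4366, 765 and 7137 with the CKS1B shRNA and 4614, 5011 and 4666 with the scrambled shRNA. PRUNE1, a phosphoesterase, read 4801, 407 and 2289.8 with the CKS1B shRNA and 4727, 3889.7 and 3139.8 with the scrambled shRNA. Both had array B as the lowest by far, and they gave -0.72 and -1.21 with it and 0.23 and -0.22 without it.

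Of the 4 genes of ubiquitin, trafficking and cell division, 3 were tested, UBE2Q1 among them, with 2 nominally lower and 1 higher both with 6 arrays (median -0.07) and without array B (median -0.14). None passed adjustment. JTB, a membrane protein with a part in cytokinesis, read 19737, 33477 and 28209 with the CKS1B shRNA, against 15813, 16469 and 16924 with the scrambled shRNA. Every CKS1B shRNA array lay above every scrambled array, and the log2 difference was 0.69 (-0.62 to 2.01) with 6 arrays and 0.53 (0.02 to 1.03, adjusted p = 0.511) without array B, where quantile normalization gave -0.05. The other 2 JTB probe sets read 3615 and 4215 on array B, below all scrambled arrays, and gave 0.50 and 0.41 without it. SCAMP3, a carrier protein of secretory membranes, read 6519, 497 and 3788 with the CKS1B shRNA and 6116, 5423 and 4917 with the scrambled shRNA, a log2 difference of -1.23 that was -0.14 (-0.72 to 0.45) without array B. RAB13, a GTPase of membrane traffic, lay below the filter at 84, 485 and 94.2 with the CKS1B shRNA and 29.3, 109 and 280.3 with the scrambled shRNA.

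Groups that did not overlap were not more common among the neighbours with 6 arrays than among other genes. CLK2 and MUC1 lay lower on all 3 CKS1B shRNA arrays, 2 of 35 genes beside 6.41% of all genes tested, and JTB lay higher, 1 of 35 beside 4.94%. In either direction that is 8.57%, against 11.3% of all genes. Without array B there were 12 of 35 (34.3%) against 28% of all genes, 3 of them lower (14.4% of all genes) and 9 higher (13.6%). Probe sets of the same gene often differed: of 20 neighbours with at least 2 probe sets above the filter, all of them shared a sign in 8 with 6 arrays and in 9 without array B.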

How the data were processed

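RNA of JJN3 cells was measured on 6 Affymetrix U133 Plus 2.0 arrays and grouped by their labels. The deposited table gives 1 linear intensity for each probe set on each array. Per the submitters' processing notes the authors used MAS5. The sources used here do not give its version or settings. The 2% trimmed mean was 500 on every array. This scaling equalises the mean but not the width of an array's distribution, so a compressed array stays compressed.

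Of 54675 probe sets, 62 controls were left out, 41091 were named with 1 gene in the platform annotation, 1801 with several and 11721 with none. Entrez identifiers of 41037 of the 41091 matched the RefSeq gene table of GRCh38.p14, used for symbols, gene order and promoter windows. Values became log2(value + 16). The brightest probe set per gene was kept if its mean log2 reached the median of all probe sets (7.34, about 146). Leave-out fits kept this choice.

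Groups were compared in R 4.3.3 with limma 3.58.1 (lmFit, eBayes with trend), without covariates, with Benjamini-Hochberg adjustment over all 12663 genes and a threshold of 0.05, and the script was tested on simulated data. CKS1B also had an exact permutation test. The exact test planned for CKS1B relative to each neighbour gave 0.1 for all 35, which CKS1B alone already gives, so its p-values are not used. Python 3.11.15 with matplotlib 3.10.9 drew the figures. Whether the letters A, B and C pair the arrays is not in the labels. Same-letter deviations from the group means correlated at 0.402, -0.081 and -0.080. With 3 arrays a group, array B of the CKS1B shRNA far apart among them, this cannot decide it. The main comparison has no block. Alternatives were other pseudocounts, filters, normalizations, probe set rules, moderation, array weights, the letter as a block, and leaving out arrays.

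The members, lists and tests were chosen with earlier results of these data known. The rule for genes given in more detail took CKS1B, listed genes within 10 places of it, those whose groups did not overlap, up to 8 of smallest p in each direction, and 8 unlisted genes of the region.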

Additional observations from a re-analysis of the deposited data

How the results depend on the processing

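Over 22 alternatives 0 listed genes passed the threshold, and the median log2 difference of the listed genes ran from -0.64 to 0.09. The smallest adjusted p of any named gene other than CKS1B was 0.0820. CKS1B ran from -4.41 to -3.63 when 1 array was left out, and it passed with array weights (-3.80), with quantile normalization without CKS1B shRNA array B (-3.68), and with the letter as a replicate block without that array or without both arrays of letter B (-3.59 each). With the replicate block and all 6 arrays it was -4.02 (adjusted p = 0.937) and 0 genes were called. Genes called over the array numbered 0 with all 6 arrays, 0 to 5 with 1 array left out, 4 with array weights, 2 with quantile normalization without array B, 1 without both arrays of letter B and 179 with the block without array B, a fit with 1 residual degree of freedom. Listed genes with groups that did not overlap numbered 3 with all 6 arrays (8.57%, against 11.3% of all genes tested), and 3 to 12 with 1 array left out (8.57% to 34.3%, against 15.4% to 28% of all genes). They numbered 11, 12 and 13 without both arrays of letter A, B and C (31.4%, 34.3% and 37.1%, against 30.5%, 36.1% and 33.3%). They numbered 8 with quantile normalization without array B (22.9% against 26.9%), 4 with it on all 6 arrays (11.4% against 13.7%) and 2 after centring (5.71% against 11.1%). The shares over all genes moved with these settings too. CKS1B has no value from probe sets without a shared-sequence suffix, since its only probe set carries one.

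Of 621 single-gene values 51 changed sign, in 13 of 29 genes, none of them past the threshold. With 1 array left out the ranges that crossed 0 were -0.77 to 0.05 for ADAM15, -1.34 to 0.014 for ADAR, -0.19 to 0.59 for CDC42SE1, -0.43 to 0.16 for EFNA4, -0.34 to 0.54 for HAX1, -1.14 to 0.49 for MCL1, -0.72 to 0.57 for PSMD4, -0.24 to 0.16 for PYGO2, -0.51 to 0.16 for UBE2Q1 and -0.38 to 1.18 for ZBTB7B. Without both arrays of letter B, and with the replicate block without array B, ADAM15 gave 0.062, ADAR 0.068, SHC1 0.024, MCL1 0.49 and PSMD4 0.59. Without letter A, EFNA4 gave 0.011 and UBE2Q1 0.18, and without letter C CDC42SE1 gave -0.25, HAX1 -0.41, PYGO2 0.29, UBE2Q1 0.10 and ZBTB7B -0.85. Array weights gave 0.26 for EFNA4, 0.36 for MCL1 and 0.45 for PSMD4. Centring on the median gave 0.049 for PYGO2 and 0.009 for UBE2Q1. Quantile normalization gave 0.19 for PYGO2, 0.17 for UBE2Q1 and -0.047 for ZBTB7B, and without array B it gave 0.12 for ADAM15, 0.25 for EFNA4, -0.049 for JTB, 0.15 for MCL1 and 0.16 for PSMD4. The mean of probe sets gave 0.27 for ARNT and 0.27 for PYGO2, and probe sets without the suffix gave 0.42 for MCL1. The cause of these changes was not tested. The spread between 3 arrays a group limits what could be called.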

Other observations

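Other genes of 1q21 to 1q22, named in myeloma or lying close to CKS1B, were set beside the listed ones. Of 33, 28 were tested and 0 passed adjustment in limma, with 6 arrays or without CKS1B shRNA array B. With 6 arrays 19 were nominally lower and 9 higher (median log2 difference -0.25), and without array B 9 were lower and 19 higher (median 0.30, beside -0.04 over all genes). Values of a group are again in the order of arrays A, B and C. S100A6, a calcium-binding protein, read 399, 679.5 and 980.4 with the CKS1B shRNA, against 201, 147 and 321 with the scrambled shRNA. Every CKS1B shRNA array lay above every scrambled array, and the log2 difference was 1.53 (adjusted p = 0.933) with 6 arrays and 1.49 (0.43 to 2.56, adjusted p = 0.46) without array B. The mean of its probe sets gave 0.66 with 6 arrays, and a second probe set, below the filter, read 39.6, 209 and 32.7 with the CKS1B shRNA and 37.6, 67.5 and 196 with the scrambled shRNA, with overlapping groups. S100A10, the partner of annexin A2, read 521, 909 and 920.1 with the CKS1B shRNA and 362, 451 and 559 with the scrambled shRNA. EFNA3, a ligand of Eph receptors, read 434, 478 and 336 with the CKS1B shRNA and 303, 259.6 and 166 with the scrambled shRNA. DPM3, a subunit of the enzyme that makes dolichol phosphate mannose, read 2773, 5391 and 6368 with the CKS1B shRNA and 2493, 2853 and 3121 with the scrambled shRNA. Their log2 differences with 6 arrays were 0.73, 0.76 and 0.70, each with an adjusted p of 0.933, and without array B they were 0.60, 0.66 and 0.58. In EFNA3 the groups did not overlap, and in S100A10 and DPM3 array A of the CKS1B shRNA lay inside the scrambled range. Of the 28 genes, groups did not overlap in 3 that were higher and 1 that was lower, 14.3% beside 11.3% of all genes. The lower one was CERS2, at 4734, 5519 and 5410 with the CKS1B shRNA and 8062, 7459 and 6270 with the scrambled shRNA. Its log2 difference was -0.47 with 6 arrays and -0.51 without array B.

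MCL1, an anti-apoptotic protein of the BCL2 family, read 10656, 1441 and 13942 with the CKS1B shRNA, against 8393, 8692 and 8939 with the scrambled shRNA. PSMD4, the ubiquitin receptor of the proteasome, read 13387, 3156 and 19025 with the CKS1B shRNA, against 10112, 11013 and 11157 with the scrambled shRNA. In both genes arrays A and C lay above every scrambled array and array B below them, and the log2 differences were -0.53 and -0.21 with 6 arrays and 0.49 and 0.57 without array B (adjusted p = 0.511 and 0.504). The other MCL1 probe sets above the filter gave -0.49 to 0.07 without array B. PSMB4, which belongs to the core of the proteasome, read 17841, 33652 and 28322 with the CKS1B shRNA, against 15148, 14204 and 13323 with the scrambled shRNA, so its groups did not overlap. Its log2 difference was 0.85 with 6 arrays and 0.66 (0.12 to 1.21) without array B, but quantile normalization gave 0.34 with 6 arrays and 0.077 without array B. IL6R, the receptor of the myeloma growth factor interleukin 6, read 108, 119.7 and 173 with the CKS1B shRNA, against 237, 228 and 124 with the scrambled shRNA. Its groups overlapped, with log2 differences of -0.48 with 6 arrays and -0.43 without array B. Without scrambled array C, the lowest of its group for IL6R, the log2 difference was -0.76. LMNA, which encodes lamins A and C, read 4469, 404 and 9594 with the CKS1B shRNA, against 3076, 3682 and 3848 with the scrambled shRNA. It was chosen after its values were seen: its 5 probe sets above the filter gave log2 differences of -0.43 to 1.19 with 6 arrays and 0.40 to 1.11 without array B, and its brightest gave -0.43 with 6 arrays and 0.89 (0.20 to 1.58, adjusted p = 0.481) without array B.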
